A study of Mus musculus with 2 samples.

Results

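The cells described here are 345 cells of a single-cell RNA library of sorted mouse short-term haematopoietic stem cells (ST-HSC), chosen for the red cell lineage gene Car1. A barcode was kept with at least 1000 genes and under 10% of its unique molecular identifiers (UMIs) from mitochondrially encoded genes. A kept cell was a member when it held at least 10 Car1 UMIs and under 20 UMIs of the granule genes Mpo, Elane and Ctsg together, per 10000 of its UMIs. The 345 members were 5.19% of the 6648 kept ST-HSC cells (95% interval 4.67% to 5.75%) and part of 9370 kept cells in the series. They were set against the other 6303 cells of their library, and against the 847 of 2722 kept cells that met the same rule in the library of long-term stem cells (LT-HSC).

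Both libraries were made from bone marrow of wild-type (WT) C57Bl6 mice, aged 8 weeks, with a 10x Genomics droplet kit that captures the 3' end of polyadenylated RNA. Per the labels, ST-HSC cells were sorted as LSK cells (negative for lineage antigens, positive for Sca-1 and Kit) that carried CD150 and CD48 and lacked CD34. LT-HSC cells were LSK cells that carried CD150 and lacked CD34, CD48 and Flk2. No treatment or mutation was given for either group, and the number of mice behind each library was not given in the sources used here. There was 1 library per group, so no difference below has a replicate check and no test was made.

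Red cells arise in the marrow from stem cells through progenitors that commit to the erythroid lineage, divide rapidly and then mature. The transcription factors GATA1 and KLF1 switch on genes for the red cell membrane, for haem synthesis and for globin, and erythropoietin keeps late progenitors alive. Globin RNA builds up during maturation, when stem cell factors such as GATA2 and the receptor KIT are shut down. Carbonic anhydrase 1, the enzyme that Car1 encodes, is an early marker of erythroid progenitors in the mouse.

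The choice of members rested on the values of Car1 and the granule genes, so the values of both are a description of the choice. Car1 per 10000 UMIs was 10.3 in the lowest member, 31.5 at the median and 92.4 in the highest. The members just inside the Car1 limit held 10.29, 10.36 and 10.49 per 10000, and the cells just outside held 9.85, 9.76 and 9.49. There were 26 further cells between 5 and 10 per 10000 with granule genes under the limit, and 38 members between 10 and 15. Those 26 cells held other erythroid genes as well, with Klf1 at 214 CPM, Rhd at 182 CPM, Ermap at 327 CPM and Hba-a1 at 46.4 CPM, beside Cd34 at 69.6 CPM and Flt3 at 64.3 CPM. Granule genes excluded 2 cells, at 24.9 and 148.6 per 10000, whereas the highest member held 4.95 and 196 members held no UMI of them.

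Members were deeper than the rest of their library. Their median was 38047 UMIs and 6160 genes per cell, against 12908 UMIs and 4168 genes in the other ST-HSC cells. Mitochondrially encoded genes took a median of 3.65% of UMIs in members and 3.46% in the other cells. Members of the ST-HSC library summed to 12924529 UMIs, the other ST-HSC cells to 98858651 and the LT-HSC cells by the same rule to 31296094. RNA of 2 gate genes went against the stated sort of the ST-HSC library. Cd34, the gene of an antigen that both sorts lacked, was seen in 22.6% of members and 86.0% of the other ST-HSC cells, beside 8.62% of LT-HSC cells of the rule and 48.9% of the remaining LT-HSC cells. Slamf1, the gene of CD150, which both sorts carried, was seen in 2.61% of members and 1.86% of the other ST-HSC cells, beside 32.2% and 39.9% of those LT-HSC cells. Cd48 is the gene of an antigen that the ST-HSC sort carried and the LT-HSC sort lacked. It was seen in 77.2% of LT-HSC cells of the rule and 12.2% of the remaining LT-HSC cells. The share was 38.8% in members and 50.1% in the other ST-HSC cells. Surface protein was not measured. The libraries shared 8 barcodes, of which 0 were ST-HSC members and 2 were LT-HSC cells of the rule. A doublet is a droplet with more than 1 cell. The doublet caller Scrublet marked 0 ST-HSC cells with its automatic threshold and so did not work there. Of the 402 cells with the highest doublet scores, 46 were members (13.3% of members, against 5.65% of the other cells). The gene lists that move without them are given beside the low genes and beside the comparison of the libraries.

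All 6 genes given as markers of these cells were more than 2-fold higher in them than in the other ST-HSC cells, a ratio that 8.31% of all genes compared reached. Since the cells were chosen on the readout, nothing is read from that share. The levels below are UMI counts scaled to a common total (CPM) summed over the cells of a group, and the interval of a ratio is an exact 95% interval that covers counting error only. Car1 (chromosome 3, 14766216 to 14808368, minus strand, mm10) stood at 3329 CPM in members, against 16.6 CPM in the other cells. Rhd, which encodes the Rh blood group protein (chromosome 4, 134864536 to 134896172, plus strand), stood at 241 CPM in members and 3.12 CPM in the other cells, a ratio of 77.4 (68.8 to 87.3). Ank1, which encodes the ankyrin that anchors the red cell membrane to its skeleton (chromosome 8, 22974844 to 23150497, plus strand), stood at 221 CPM against 3.54 CPM (ratio 62.3, 55.8 to 69.8). Cldn13, a claudin gene found in rodents (chromosome 5, 134914249 to 134915526, minus strand), stood at 166 CPM against 2.13 CPM (ratio 77.9, 67.6 to 90.2). Few of the other cells held a UMI of these genes: 12.2% had a Car1 UMI, 1.65% a Rhd UMI, 2.30% an Ank1 UMI and 1.03% a Cldn13 UMI.

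Globin RNA was found in part of the members. Hba-a1, an alpha globin gene (chromosome 11, 32283511 to 32284465, plus strand), stood at 123 CPM in members and 16.5 CPM in the other cells. Hbb-bs, a beta globin gene (chromosome 7, 103826534 to 103828096, minus strand), stood at 107 CPM in members and 36.0 CPM in the other cells. The globins' ratios were 7.47 (6.97 to 8.01) and 2.96 (2.78 to 3.15). Of the 345 members, 148 held no adult globin UMI at all. The members are therefore called erythroid-like cells here, by their Car1 rule and markers, without reference to globin.

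Stretches upstream of 6 of these erythroid genes are shown because they were high in the same cells as Gata1 and Klf1, whose proteins bind GATA and CACCC motifs. The 6 were picked among the high genes for holding both motifs. Each line holds bases before the RefSeq start (build GRCm38.p6), up to the first base that GENCODE M21 places in an exon, 5' to 3' on the strand of the gene. The last base shown lies 169 bases before the RefSeq start for Hbb-bs, 162 for Hba-a1, 55 for Klf1, 24 for Rhag and 1 for Epor and Rhd. The CACCC match of Hbb-bs, at 90 bases before the start, is therefore not shown. Nor is 1 of the 2 CACCC matches of Hba-a1, at 60 bases before the start. Capitals mark the GATA motif, read as AGATAA or with a final G as AGATAG, and equally with T in first place, and the motif CACCC, both on either strand.
Hbb-bs: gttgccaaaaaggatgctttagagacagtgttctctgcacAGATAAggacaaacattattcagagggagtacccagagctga
Hba-a1: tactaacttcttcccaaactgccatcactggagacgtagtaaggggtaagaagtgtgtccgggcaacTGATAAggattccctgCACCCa
Klf1: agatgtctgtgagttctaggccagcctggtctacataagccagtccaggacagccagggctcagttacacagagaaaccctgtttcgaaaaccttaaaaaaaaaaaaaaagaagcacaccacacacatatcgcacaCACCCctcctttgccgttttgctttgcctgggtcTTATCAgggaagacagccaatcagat
Epor: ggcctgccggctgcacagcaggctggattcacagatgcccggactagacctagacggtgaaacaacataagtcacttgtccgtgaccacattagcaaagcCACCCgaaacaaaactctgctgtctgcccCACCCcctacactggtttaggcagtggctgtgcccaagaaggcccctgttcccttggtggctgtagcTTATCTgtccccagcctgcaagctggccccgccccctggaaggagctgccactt
Rhd: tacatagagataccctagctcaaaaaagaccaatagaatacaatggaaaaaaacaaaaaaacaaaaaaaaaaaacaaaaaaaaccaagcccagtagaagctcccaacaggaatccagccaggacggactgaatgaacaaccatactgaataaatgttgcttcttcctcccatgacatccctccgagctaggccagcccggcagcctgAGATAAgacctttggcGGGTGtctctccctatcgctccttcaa
Rhag: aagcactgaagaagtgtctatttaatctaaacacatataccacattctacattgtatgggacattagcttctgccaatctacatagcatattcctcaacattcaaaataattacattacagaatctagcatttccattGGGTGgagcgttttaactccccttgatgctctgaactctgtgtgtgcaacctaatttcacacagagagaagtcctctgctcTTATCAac
The stretches are chr7:103828097-103828178 (minus) for Hbb-bs, chr11:32283422-32283510 (plus) for Hba-a1, chr8:84901732-84901927 (plus) for Klf1, chr9:21963577-21963826 (minus) for Epor, chr4:134864286-134864535 (plus) for Rhd and chr17:40810899-40811125 (plus) for Rhag.

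Each of the 6 genes had a GATA match within 250 bases of its start because it was picked for holding the motifs. The shares that follow are therefore no comparison for these 6 genes. Their GATA matches lay at 210 bases before the start for Hbb-bs, 183 for Hba-a1, 80 for Klf1, 54 for Epor, 43 for Rhd and 31 for Rhag. Of all 27025 genes in the RefSeq promoter table, 27.1% held a GATA match in the same 250 bases, 51.3% held CACCC and 11.9% held both. Among the 15 leading erythroid-like genes named below, 12 were in the table, of which 5 held GATA and 9 held CACCC. The red cell membrane and skeleton list had 14 genes in the table, 8 with GATA and 12 with CACCC, and the haem list had 16, 2 with GATA and 11 with CACCC. The list of erythroid transcription factors and partners had 21, 5 with GATA and 16 with CACCC. This last motif was also common in lists of other cell types, so its counts did not set the erythroid lists apart. It was held by 13 of 17 neutrophil-monocyte progenitor genes, 11 of 15 lymphoid progenitor genes and 15 of 20 HSC identity genes. A GATA match was held by 1, 4 and 4 of these genes. A match is a description of the letters and not a bound site.

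Of 10189 genes with a mean of at least 5 CPM over members and other cells, 847 were at least 2-fold higher in erythroid-like cells, which is 8.31%, and 2539 were at least 2-fold lower, which is 24.9%. At 10-fold or more, 105 genes were higher and 614 were lower. Over all 10189 genes the log2 ratio had a median of -0.16. Of the genes past 2-fold, 25.01% were higher, and this share was 40.2% with TMM scaling and 44.3% with median-of-ratios scaling. Those scalings moved the log2 ratios up by 0.25 and 0.32, so the balance of higher and lower genes depends on the scaling, whereas 185 and 183 of the 189 named genes past 2-fold stayed past it in the same direction.

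The genes furthest above the rest of the library included a carrier, a surface protein and a metallothionein. Slc25a21, a mitochondrial carrier, stood at 1677 CPM in members and 14.8 CPM in the other cells (ratio 114, 108 to 120). Ermap, an erythroid membrane protein of the Scianna blood group, stood at 373 CPM against 3.69 CPM (ratio 101, 90.7 to 113). Mt2, a metallothionein, stood at 339 CPM against 3.27 CPM (ratio 104, 92.6 to 116). In each case at least 90.1% of members held a UMI of the gene and at most 3.36% of the other cells did. Sphk1, which makes sphingosine-1-phosphate, stood at 148 CPM in members and 1.45 CPM in the other cells. Prss50, a protease of the testis, stood at 59.6 CPM against 0.455 CPM, and Sh3tc2 at 37.1 CPM against 0.253 CPM. The ratios of these last 3 genes were 102, 131 and 147, but Prss50 and Sh3tc2 rested on 45 and 25 UMIs in the other cells. The other leading genes were Rhag, Add2, Slc38a5, Col5a1, Tspo2, Nxpe2, Rhd, Cldn13 and Car1.

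**Figure D1:**
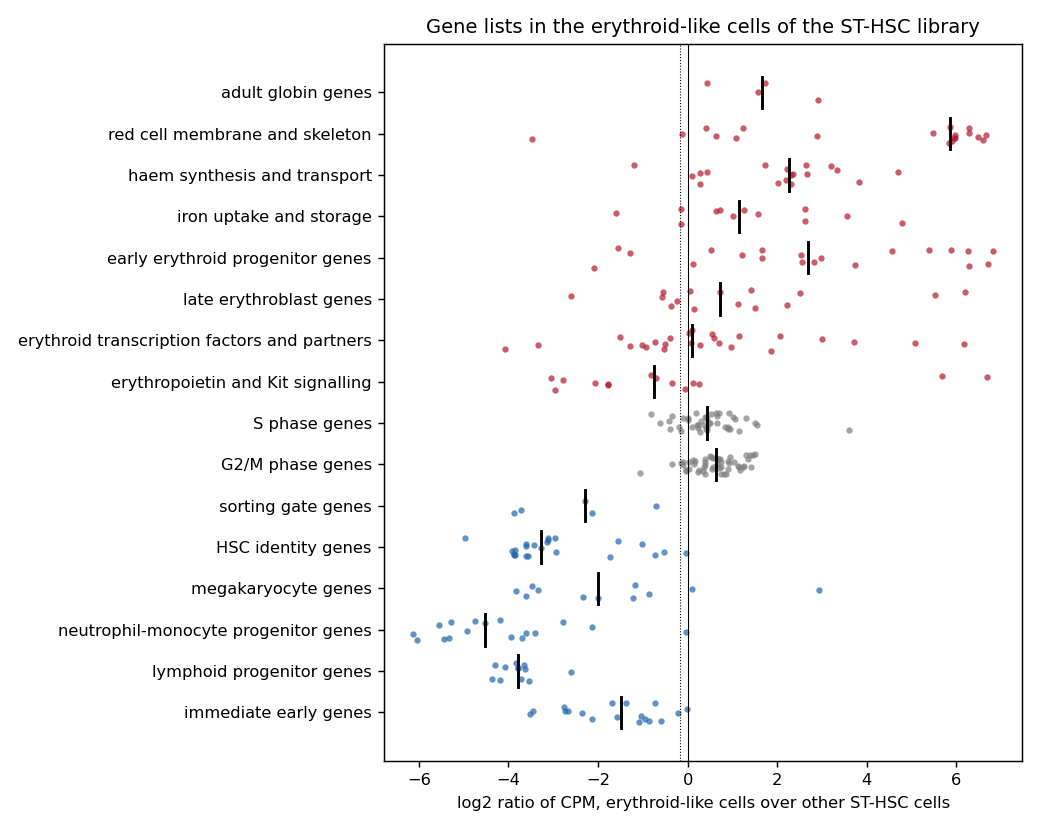
Each row is a gene list, each point a measured gene, and the horizontal axis is the log2 ratio of CPM in erythroid-like over the other cells of the ST-HSC library, with a bar at the list's median. The red cell membrane list has a median of 5.85 and the neutrophil-monocyte progenitor list, drawn with the 3 granule genes of the rule, one of -4.53, against -0.16 for all 10189 genes.

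Erythroid transcription factors ranged from far above the rest of the library to far below it. Of 25 measured factors and partners, 7 were at least 2-fold higher and 5 at least 2-fold lower, with a median log2 ratio of 0.10. Over all genes compared 8.31% were higher and 24.9% lower, so lower factors were not more common than lower genes in general. Klf1, the activator of adult beta globin, stood at 249 CPM in erythroid-like cells and 3.43 CPM in the other cells (ratio 72.5, 64.8 to 81.3). Gata1, the leading factor of the lineage, stood at 122 CPM against 3.61 CPM (ratio 33.7, 30.0 to 37.9). Gfi1b, a repressor needed for red cells and platelets, stood at 122 CPM against 9.33 CPM, a ratio of 13.04. The others that were higher were Nfia (8.03), Sox6 (4.17), the GATA1 partner Zfpm1 (3.66) and Tal1 (2.21), each given as its ratio.

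The 5 lower members of the same list included factors of other lineages. Spi1, which encodes PU.1 of the myeloid and lymphoid lineages, stood at 9.13 CPM in erythroid-like cells and 154 CPM in the other cells, 16.9-fold lower. Fli1, of the megakaryocyte lineage, stood at 34.0 CPM against 342 CPM, 10.1-fold lower. Lyl1, Runx1 and Nfe2 were lower by 2.87-fold, 2.45-fold and 2.02-fold. Gata2 and Myb, which mark earlier progenitors, were within 2-fold, at 31.7 CPM against 45.5 CPM and at 288 CPM against 270 CPM.

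Of the genes for erythropoietin and Kit signalling, 2 of 14 measured were at least 2-fold higher and 6 at least 2-fold lower (median log2 ratio -0.76). Epor, the erythropoietin receptor, stood at 72.3 CPM in erythroid-like cells and 1.42 CPM in the other cells (ratio 51.1, 42.7 to 61.5). A UMI of it was seen in 82.3% of erythroid-like cells and in 1.51% of the other cells. Sphk1 was the other higher gene of this list. The kinase Jak2 stood at 72.0 CPM against 74.8 CPM, and Stat5a and Stat5b, which carry the signal to the nucleus, were within 2-fold. The signal targets Pim1 and Socs3 were lower, at 48.4 CPM against 331 CPM and at 1.62 CPM against 13.5 CPM.

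The red cell membrane and its skeleton had 15 of 19 measured genes at least 2-fold higher and 1 lower, with a median log2 ratio of 5.85. Surface proteins that were high included the Rh-associated glycoprotein Rhag, at 197 CPM in erythroid-like cells and 2.18 CPM in the other cells. The water channel Aqp1 stood at 216 CPM against 3.59 CPM and the blood group protease gene Kel at 119 CPM against 1.91 CPM. Their ratios lay between 60.2 and 90.1. Genes of the skeleton were high as well: Sptb, which encodes beta-spectrin, stood at 79.4 CPM against 1.38 CPM. The adducin gene Add2 stood at 94.4 CPM against 0.981 CPM. Band 3, encoded by Slc4a1 and abundant in mature red cells, had 13 UMIs in 6 members and was too low to be measured. The glucose transporter gene Slc2a1 was the lower member of the list, at 2.32 CPM against 25.9 CPM. Mouse red cells, unlike human ones, lose this transporter as they mature.

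Most haem synthesis genes were high in erythroid-like cells, those of its first enzyme excepted. Of 18 measured genes 13 were at least 2-fold higher and 1 was lower (median log2 ratio 2.27). Later enzymes of the path stood as follows in erythroid-like and other cells. Cpox was at 293 CPM against 20.6 CPM and Alad at 246 CPM against 39.5 CPM. Fech, which inserts the iron, was at 88.5 CPM against 17.7 CPM. Their ratios were 14.2, 6.23 and 4.99. Blvrb, a reductase of red cells, stood at 1056 CPM against 40.9 CPM. Alas2, the erythroid form of the first enzyme and a gene of maturing cells, had 34 UMIs in 22 members, 2.63 CPM against 1.66 CPM in the other cells, under the limit for a measured gene. Alas1, the form that other tissues use, was at 13.1 CPM against 29.9 CPM.

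Iron handling genes were higher in 7 of 12 and lower in 1 (median log2 ratio 1.14). The transferrin receptor gene Tfrc stood at 205 CPM in erythroid-like cells and 33.5 CPM in the other cells, a ratio of 6.11. Steap3, which reduces the iron brought in by transferrin, had a ratio of 11.8 and the iron exporter gene Slc40a1 one of 27.5. Ncoa4, which sends ferritin to be broken down, was lower, at 20.6 CPM against 61.9 CPM.

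The list of early erythroid progenitor genes had 15 of 20 members higher and 3 lower (median log2 ratio 2.68), and that of late erythroblast genes 7 of 15 higher and 1 lower (median 0.73). Car2 was already at 452 CPM in the other ST-HSC cells and stood at 2548 CPM in erythroid-like cells. Late genes that were high were Tspan8 at 56.5 CPM against 0.769 CPM and Hemgn at 110 CPM against 19.3 CPM. Bpgm, the enzyme that makes the red cell regulator of oxygen release, was within 2-fold, at 12.9985 CPM in erythroid-like cells and 15.4 CPM in the other cells. Of the antioxidant genes 8 of 21 were higher and 1 lower. Among them Prdx2, a peroxiredoxin abundant in red cells, stood at 1168 CPM against 367 CPM.

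Genes that mark the other cell types of the sort were low in erythroid-like cells. Of the HSC identity list, 0 of 23 were higher and 20 were at least 2-fold lower (median log2 ratio -3.28). Among them was the surface receptor gene Procr, at 1.86 CPM against 27.3 CPM. The neutrophil-monocyte progenitor list, without the 3 granule genes that the rule limited, had 13 of 14 lower and 0 higher (median -4.06). Prtn3, a granule protease gene that the rule did not use, stood at 27.2 CPM in erythroid-like cells and 628 CPM in the other cells, 23.1-fold lower. Lymphoid progenitor genes were lower in 12 of 12 (median -3.78), among them Dntt, the polymerase that adds bases at antigen receptor joints, at 9.52 CPM against 196 CPM. Megakaryocyte genes were lower in 8 of 11 and higher in 1, which was Gp5, a glycoprotein gene of platelets. Their summed level was 234 CPM in erythroid-like cells and 929 CPM in the other cells.

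Lists of rarer cell types held few measured genes. Of 8 basophil, mast cell and eosinophil genes 5 were lower, and Prss34, a basophil protease gene, had no UMI in erythroid-like cells. The higher gene of that list was Il1rl1, the receptor of interleukin-33, at 36.1 CPM against 2.62 CPM, and it was seen in 64.3% of erythroid-like cells. Dendritic cell and MHC class II genes were lower in 9 of 11, with Cd74 at 95.4 CPM against 1210 CPM, and T or NK cell genes in 5 of 5. The macrophage list had 2 measured genes, of which Slc40a1 was higher and Cd68 lower, while the macrophage genes Adgre1 and C1qa were below measurement. Of the lineage antigens, Ly6g, Cd3e and Cd8a had no UMI in erythroid-like cells.

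Some of these low levels rest on few cells. Without the 402 highest doublet scores 46 of 243 named genes and 5 of 27 gene lists moved by over 1.5-fold, and the medians of all 5 lists then lay lower. The log2 median was -6.06 without them and -2.79 with them for the lineage antigens, -4.35 and -3.28 for HSC identity, and -5.79 and -3.78 for the lymphoid progenitor list. It was -5.33 and -3.43 for T or NK cell genes, and -5.67 and -4.53 for the neutrophil-monocyte list with its granule genes. A single other cell held 98.4% of the UMIs of the antibody light chain gene Iglc3, and 5 other cells held 97.0% of those of Igkc. Without the high scores the log2 ratio of Iglc3 was -0.99, against -7.60 with them, and that of Igkc -0.38 against -5.31. Among members, 5 cells held 56.1% of the 123 Dntt UMIs. Without the high scores the log2 ratio of Dntt was -6.44 against -4.37, and that of Cd34 -6.09 against -3.89. Whether these UMIs in members came from doublets or free RNA was not tested.

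The genes of the sorting gate were mostly lower in erythroid-like cells than in the rest of the sort. Ly6a, which encodes Sca-1, stood at 59.0 CPM against 259 CPM and was seen in 50.1% of erythroid-like cells and 86.1% of the other cells. Kit stood at 133 CPM against 217 CPM and was seen in 87.5% against 87.1% of cells. Cd48 stood at 16.9 CPM against 82.3 CPM and Cd34 at 18.3 CPM against 271 CPM. Flt3, the gene of Flk2, was seen in 19.4% of erythroid-like cells and 81.1% of the other cells. Slamf1, the gene of CD150, was near the floor in both groups, at 1.08 CPM against 1.28 CPM. Of the 5 gate genes measured 0 were higher and 4 were lower.

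Erythroid-like cells held more RNA of division and ribosome genes. After each cell was thinned to 5000 UMIs, genes of S and G2/M phase took at least 1% of UMIs in 283 of 331 erythroid-like cells, or 85.5% (81.2% to 89.1%). The same held for 30.5% (29.3% to 31.7%) of the other ST-HSC cells, for 41.0% of the Dntt-positive cells and for 51.6% of the granule-gene-high cells among them. In the LT-HSC cells of the same rule the share was 60.4% (57.0% to 63.8%). Thinning left out 14 erythroid-like and 267 other cells, and without it the shares were 88.1% and 29.8%. The gap depended on the limit: at 2% of UMIs the shares were 3.93% and 4.42%. Cells past 2% were few in both groups. Erythroid-like cells had a median of 0.46% of UMIs from S phase genes and 0.88% from G2/M genes, against 0.2% and 0.22% in the other cells.

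**Figure D2:**
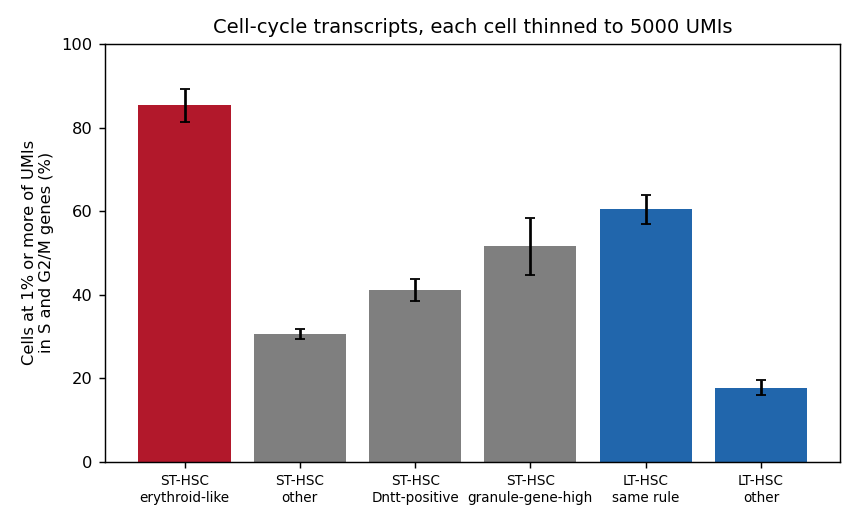
The vertical axis is the percent of cells whose S and G2/M phase genes took at least 1% of UMIs after thinning to 5000 UMIs, with exact 95% intervals for counting error, in groups of cells from both libraries. Erythroid-like cells of the ST-HSC library stand at 85.5% and the other ST-HSC cells at 30.5%.

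Gene by gene, 7 of 43 S phase genes were at least 2-fold higher and 0 lower, and 12 of 52 G2/M genes were higher and 1 lower. Ccne1, the cyclin that opens S phase, stood at 91.1 CPM in erythroid-like cells and 7.48 CPM in the other cells, a ratio of 12.2. The median log2 ratio of the G2/M list was 0.64 over all cells and -0.27 when only cells past the 1% limit were compared on both sides. Cyclins, kinases and inhibitors were higher in 1 of 16 and lower in 7, with the inhibitor gene Cdkn1a at 5.34 CPM against 25.3 CPM. E2f4, an E2F family factor gene, stood at 128 CPM against 31.5 CPM. Of 24 ribosome biogenesis genes 9 were higher and 0 lower (median 0.93). Immediate early genes were lower in 12 of 18 (median -1.48). Of 16 polyamine, nucleotide and one-carbon genes 3 were higher and 1 lower, with Mthfd1 at 267 CPM against 46.2 CPM. The glycolysis list had 1 of 15 higher and 5 lower (median -0.52), beside 8.31% higher and 24.9% lower over all genes compared. In this list Pkm, the pyruvate kinase of dividing cells, stood at 23.8 CPM against 324 CPM. Pklr, the form that red cells use, was on no list and was looked up after Pkm was seen, at 50.1 CPM against 0.668 CPM.

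Globin RNA was spread very unevenly over the erythroid-like cells. The 4 adult globin genes had 4290 UMIs in them. None was found in 148 cells, while 94 cells held 1 to 3, 39 cells 4 to 9, 45 cells 10 to 49 and 19 cells 50 or more. The highest cell held 965 UMIs, 22.5% of all, and the 10 highest held 53.9%. Per 10000 UMIs of a cell, the median was 0.248, the upper quartile 1.23 and the highest value 671. Of the 4 embryonic globin genes 0 reached the level of a measured gene.

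**Figure D3:**
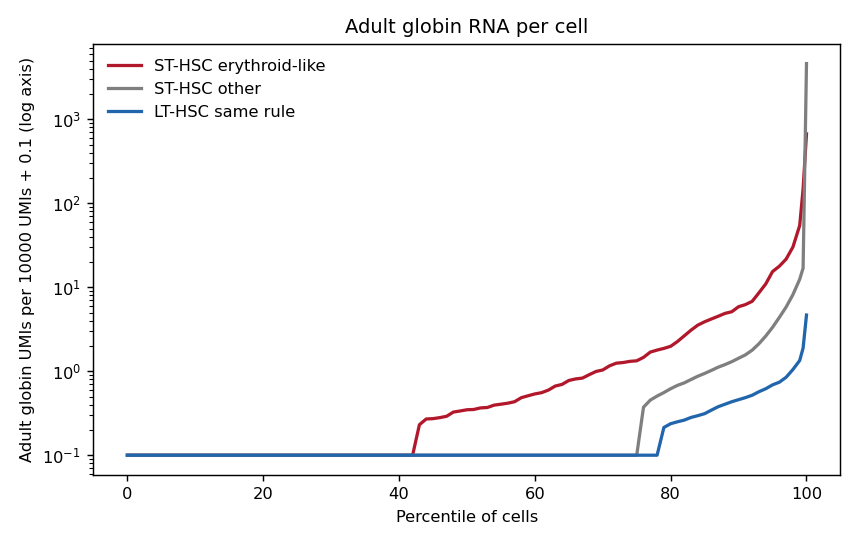
Cells of each group are ordered along the horizontal axis by percentile, and the vertical axis gives adult globin UMIs per 10000 UMIs of the cell, plus 0.1, on a log scale. The erythroid-like cells of the ST-HSC library have a median of 0.248 per 10000 and a highest value of 671.

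Free RNA in droplets can give globin UMIs to cells that make none. Its amount was not estimated, and the erythroid-like cells were set beside cells that should lack globin. At least 1 globin UMI was seen in 57.1% of erythroid-like cells (51.7% to 62.4%), at a median of 38047 UMIs per cell. The share was 24.6% in Dntt-positive cells (1353 cells, median 17072 UMIs) and 15.8% in granule-gene-high cells (221 cells, median 28980 UMIs). After thinning to 5000 UMIs the shares were 30.2% in erythroid-like cells, 9.33% in Dntt-positive cells and 4.07% in granule-gene-high cells. Hbb-bt, the other adult beta globin gene, was seen after thinning in 15.1% of erythroid-like cells and 11.8% of the other cells. The remaining globins stood further from the other cells. Hba-a1 was seen after thinning in 17.5% of erythroid-like cells and 0.911% of the other cells, and Hbb-bs in 9.06% and 1.41%. The alpha globin genes Hba-a1 and Hba-a2 are almost the same in sequence, and so are the beta globin genes Hbb-bs and Hbb-bt, so the split of reads within each pair is uncertain.

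A few cells decided how high globin stood against the rest of the library. Among the other ST-HSC cells 2 cells with 100 or more globin UMIs per 10000 held 6105 of 11490 globin UMIs, and 2 members of that kind held 1234 of 4290. With all 4 left out, the log2 ratio was 4.04 for Hbb-bs, 5.31 for Hba-a1 and 4.46 for Hba-a2. With them it was 1.57 for Hbb-bs, 2.90 for Hba-a1 and 1.74 for Hba-a2. The median log2 ratio of the 4 globin genes was 4.25 without and 1.65 with these cells, and 0.43 when every deposited barcode was used. Hbb-bt was the 1 adult globin gene within 2-fold when these cells were counted. In the other ST-HSC cells it stood at 55.8 CPM with the 2 globin-rich cells among them and at 47.5 CPM without. The highest member was unlike most others: it held 14384 UMIs, Hbb-bs at 437 UMIs, Hba-a1 at 299, the band 3 gene Slc4a1 at 7 and Kit at 0.

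Globin-rich and globin-free erythroid-like cells differed in other genes. The cells were set in 4 ranges of globin UMIs per 10000: 0 (148 cells), above 0 and under 1 (95 cells), 1 to under 5 (64 cells) and 5 or more (38 cells). Median depth was 30580.5, 43007, 44349 and 37614 UMIs over these ranges. Because the ranges were set by a measured value and cells with few UMIs can miss globin, the following levels are descriptions only.

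Between the top range and the cells with no globin, 3.89% of 8999 genes compared were at least 2-fold higher and 11.4% at least 2-fold lower. Of the membrane and skeleton list 10 of 19 measured genes were higher and 0 lower (median log2 ratio 1.04), and of the haem list 9 of 19 were higher and 1 lower (median 0.93). Rhd stood at 147, 213, 320 and 476 CPM over the ranges low to high, and Ank1 at 163, 199, 281 and 352 CPM. Sptb stood at 22.7, 55.6, 129 and 239 CPM and Cldn13 at 78.0, 135, 263 and 358 CPM. Sox6, a factor that silences embryonic globin in mice, had the steepest order of the transcription factors, at 12.2, 25.2, 76.1 and 257 CPM, 21.02-fold (15.8 to 28.5) higher in the top range than in cells with no globin. Alas2 was highest in the top range, at 0.445, 1.40, 2.16 and 14.5 CPM. It had only 34 UMIs over all members, of which 1 cell of the top range held 6 and another held 4.

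Of the HSC identity list 10 of 14 measured genes were at least 2-fold lower in the top range than in cells with no globin and 0 higher (median log2 ratio -1.70). The immediate early genes were lower in 12 of 16 (median -1.45). Single genes that stood lower with each range were Gata2, Kit and Myb. Gata2 stood at 52.7, 29.5, 14.4 and 5.08 CPM, Kit at 185, 139, 90.9 and 33.4 CPM and Myb at 417, 286, 176 and 102 CPM over the ranges low to high. Cd34 was not lower at each step, at 20.7, 22.0, 15.2 and 5.81 CPM. Apoe, the lipid carrier gene, stood at 182, 54.9, 28.9 and 0.726 CPM and the activation antigen gene Cd69 at 39.8, 7.95, 9.02 and 1.45 CPM. Klf1 and Gata1 changed little by comparison, at 209, 227, 306 and 327 CPM and at 110, 113, 139 and 152 CPM. Car1 itself was lower where globin was high, at 3598, 3488, 3014 and 2591 CPM. The median share of UMIs from S and G2/M genes was 1.25%, 1.32%, 1.53% and 1.797%.

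**Figure D4:**
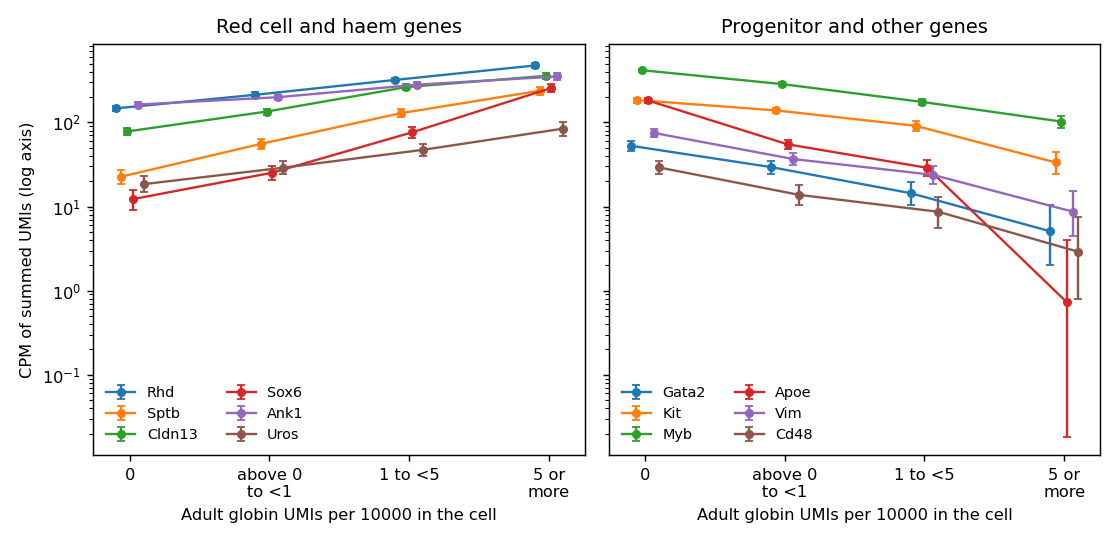
The horizontal axis gives 4 ranges of adult globin UMIs per 10000 among the 345 erythroid-like cells and the vertical axis the CPM of single genes on a log scale, with exact 95% intervals for counting error. Cldn13, Sptb and Sox6 stand higher with each range, whereas Gata2, Kit and Myb stand lower.

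Correlations over the 345 cells gave a like order, as a description of cells that share a library and differ in depth. Among 8538 genes seen in at least 20% of the cells, Spearman's rho with globin per 10000 UMIs was highest for Cldn13 (0.67), Fth1 (0.66), Prdx2 (0.66) and Sptb (0.66). It was lowest for Cmtm7 (-0.57), Psmb8 (-0.57), S100a10 (-0.57) and Myb (-0.56). Globin had a rho of 0.26 with the UMIs of a cell and -0.11 with Car1. With Car1 itself the highest genes were Atpif1 (0.43), the ribosomal protein gene Rps12 (0.40) and the metallothionein gene Mt1 (0.39), and the lowest were Malat1, Akap13 and Tmem176b (each -0.33). In 4 equal sets of cells ordered from the lowest to the highest Car1, globin was seen in 54.7%, 64.0%, 54.7% and 55.2% of cells. The sets held 1958, 754, 1040 and 538 of the 4290 globin UMIs, and 1 cell held 965 of the 1958 in the lowest set. Cd34 stood at 36.9, 25.6, 9.21 and 4.26 CPM over these sets and Klf1 at 228, 254, 262 and 246 CPM.

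The same Car1 rule found 847 cells, 31.1% (29.4% to 32.9%) of the kept cells, in the LT-HSC library, and these had more Car1 and less globin and membrane RNA. Car1 stood at 3329 CPM in erythroid-like cells of the ST-HSC library and 6347 CPM in the LT-HSC cells, 1.91-fold lower. Of 9235 genes compared, 464 were at least 2-fold higher in the ST-HSC cells, which is 5.02%, and 389 at least 2-fold lower, which is 4.21%. The median log2 ratio was 0.086. With 1 library for each sort, a difference of sort and a difference of library preparation cannot be told apart.

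Globin led this comparison. Hba-a1 stood at 123 CPM in ST-HSC erythroid-like cells and 3.42 CPM in the LT-HSC cells (ratio 36.1, 29.7 to 44.3). Hbb-bs stood at 107 CPM against 3.64 CPM (ratio 29.3, 24.2 to 35.8), Hba-a2 at 26.2 CPM against 0.767 CPM and Hbb-bt at 75.6 CPM against 4.28 CPM. At least 1 globin UMI was seen in 57.1% of the ST-HSC cells and 21.4% of the LT-HSC cells, and in 30.2% and 4.44% after thinning. Without the 2 members with 100 or more globin UMIs per 10000 the log2 ratio of Hbb-bs was 4.05, against 4.87 with them, and the median of the 4 genes was 4.38, against 4.98. Of the LT-HSC cells of the rule 0 held as much. In the remaining cells adult globin stood at 116 CPM in the ST-HSC library and 45.1 CPM in the LT-HSC library, and at 54.5 CPM against 45.1 CPM without the 2 ST-HSC cells above that level. Most of the latter sums was Hbb-bt, at 47.5 CPM against 38.9 CPM. The other genes differed between the remaining cells even so. Hba-a1 stood at 2.38 CPM against 0.689 CPM, Hba-a2 at 0.911 CPM against 0.419 CPM and Hbb-bs at 3.66 CPM against 5.12 CPM. A globin UMI was seen in 24.9% of the remaining ST-HSC cells and 21.4% of the remaining LT-HSC cells. The part of free RNA in the gap was not tested.

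Lymphoid progenitor genes were higher in 3 of the 4 measured and lower in 0 (median log2 ratio 3.91), and in the remaining cells of the libraries 10 of 12 were higher (median 4.79). Among them was Flt3, a receptor of early lymphoid progenitors. It is also the gene of Flk2, an antigen that the LT-HSC sort lacked and that the stated ST-HSC sort did not include. Flt3 stood at 24.8 CPM in ST-HSC erythroid-like cells and 1.05 CPM in the LT-HSC cells, and it was seen in 19.4% and 2.13% of these cells. Without the highest doublet scores of both libraries its log2 ratio was 2.87, against 4.56 with them, and too few genes of the list were measured for a median. Of 234 named genes 38 moved by over 1.5-fold without these scores, as did 4 of 24 lists. The log2 medians were -1.67 without them and -0.42 with them for the gate genes, -1.81 and -0.9998 for megakaryocyte genes, -1.20 and -0.18 for the neutrophil-monocyte list, and -1.47 and -0.59 for the basophil list.

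Membrane genes were higher as well. Of 18 measured, 12 were at least 2-fold higher in the ST-HSC cells and 0 lower (median log2 ratio 1.18), whereas in the remaining cells of the libraries 0 of 9 were higher and 3 lower (median -0.49). Sptb stood at 79.4 CPM against 4.06 CPM (ratio 19.6, 16.3 to 23.7) and Ank1 at 221 CPM against 48.4 CPM. Rhag was at 197 CPM against 57.0 CPM. Of 25 erythroid transcription factors and partners 3 were higher and 1 lower (median 0.36), and of 20 early erythroid progenitor genes 5 were higher and 2 lower (median 0.49). Gata1 stood at 122 CPM against 117 CPM, Klf1 at 249 CPM against 148 CPM and Tspo2, an erythroid transporter gene, at 189 CPM against 192 CPM. Gata2 was the lower factor, at 31.7 CPM against 82.4 CPM. Sox6 was the factor of the list with the largest ratio, at 56.3 CPM against 6.87 CPM (8.20, 7.03 to 9.59).

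**Figure D5:**
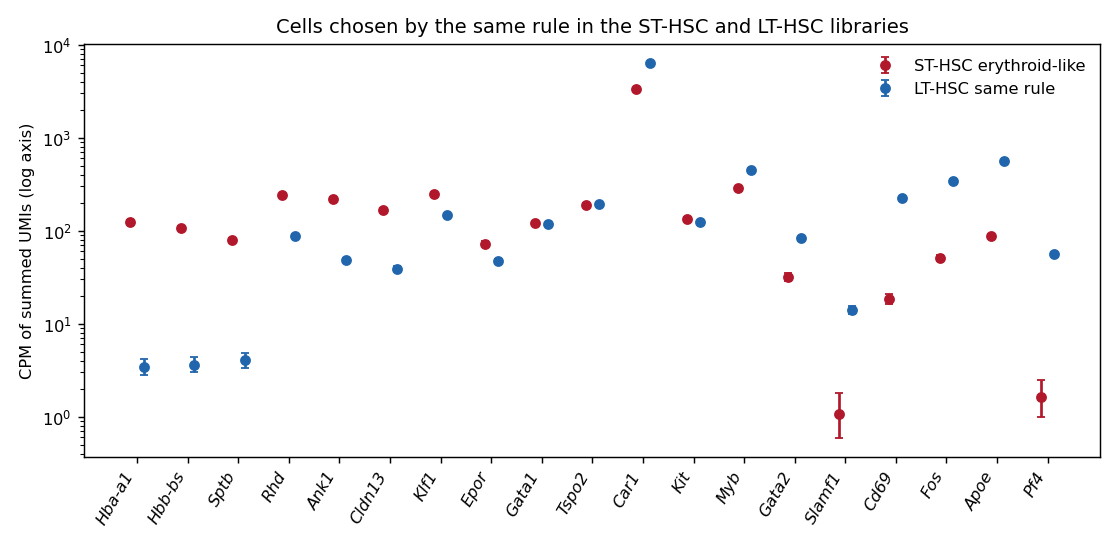
CPM of single genes, on a log axis, in erythroid-like cells of the ST-HSC library and in LT-HSC cells chosen by the same rule, with exact 95% intervals for counting error. Hba-a1, Hbb-bs and Sptb lie far apart between the libraries, whereas Gata1 and Tspo2 nearly coincide.

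Lower in the ST-HSC cells were genes of early response and of platelets. The immediate early genes, a fast response of cells to signals and handling, were lower in 17 of 18 (median log2 ratio -2.05). Fos stood at 51.3 CPM in ST-HSC erythroid-like cells and 341 CPM in the LT-HSC cells, 6.66-fold lower, and Ier2 at 70.7 CPM against 444 CPM. The same list was lower in 7 of 19 genes in the remaining cells of the ST-HSC library against those of the LT-HSC library (median -0.78). Pf4, a platelet chemokine gene, stood at 1.62 CPM against 56.4 CPM, but 5 cells held 69.8% of its UMIs in the LT-HSC cells. Of 12 megakaryocyte genes 6 were lower in the ST-HSC cells and 0 higher, and 12 of 17 were lower in the remaining cells (median -2.43). Apoe stood at 87.9 CPM against 562 CPM and Cd69 at 18.6 CPM against 223 CPM. Mitochondrially encoded genes were higher in 8 of 13 (median 1.11), and were so in 6 of 13 in the remaining cells (median 0.74). The part of the library as a whole in these values was not tested.

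The libraries were also compared in cells matched on Car1. Among cells with 20 to under 50 Car1 UMIs per 10000, 225 in the ST-HSC library and 294 in the LT-HSC library, Car1 stood at 3370 CPM and 3503 CPM. Of 9385 genes compared, 4.44% were at least 2-fold higher in the ST-HSC cells and 9.53% at least 2-fold lower. The membrane and skeleton list had 12 of 19 higher and 1 lower (median log2 ratio 1.28), and all 4 adult globin genes were higher. Rhd stood at 258 CPM in the ST-HSC cells and 51.2 CPM in the LT-HSC cells, a ratio of 5.04, and Ank1 at 221 CPM against 44.1 CPM, a ratio of 5.02. The lower gene was Slc2a1, at 1.48 CPM against 9.61 CPM, and Icam4, Cd47 and Bsg, surface protein genes of the list, had ratios of 0.907, 0.750 and 1.24. Sptb had a ratio of 21.5, Cldn13 of 6.78, Hba-a1 of 23.1 and Hbb-bs of 19.4. Klf1 had a ratio of 1.97, and Gata1 stood at 123 CPM against 104 CPM. At this matched Car1 level 894 genes were at least 2-fold lower in the ST-HSC cells, against 389 over all cells of the rule. Of 25 lists 8 moved by over 1.5-fold, as did 71 of 230 named genes. The HSC identity list was lower in 12 of 19 (median -1.64), against 5 of 15 (median -0.41) over all cells of the rule. Immediate early genes had a median of -3.04, against -2.05, and megakaryocyte genes one of -2.06, against -0.9998. This matching was chosen after the data were seen.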

How the data were processed

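The authors deposited 1 matrix of raw UMI counts per library over 32285 genes, with no normalization. Per the submitters' processing notes the counts were made with Cell Ranger 7.2 on mm10, whereas the file headers name Cell Ranger 7.1.0. GENCODE M21 held 32158 of the gene IDs and gave their coordinates. Deposited barcodes numbered 7586 in the ST-HSC library (113480785 UMIs) and 2938 in the LT-HSC library (65158651 UMIs), of which 6648 and 2722 passed the filter of at least 1000 genes and under 10% mitochondrial UMIs. No deposited annotation of cell types was used.

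UMI counts were summed over the cells of a group and scaled to CPM. Ratios carry the exact conditional binomial (Clopper-Pearson) 95% interval, CPM values the exact Poisson interval and shares the Clopper-Pearson interval, all for counting error only. Genes needed a mean of 5 CPM over both groups of cells and were called higher when the ratio reached 2, or lower when it was no more than 0.5. Cells count as no replicates, and with 1 library per sort no p-value was computed.

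The members, the gene lists and the tests were chosen with earlier results of these data known. The genes named were the markers, the genes of the rule and of the gate. To them were added the 15 highest and 15 lowest ratios within the library and the 10 highest and 10 lowest between the libraries, in the order of whichever interval bound lay closer to 1, for genes with 20 CPM or more in either group. Unnamed gene models were passed over in these rankings, 1 in all. Further named were the measured members of erythroid lists, up to 4 members of each other list, and the 10 highest and 10 lowest correlations with Car1 and with globin among genes seen in 20% of members. Pklr lies outside this rule. Dntt-positive cells held at least 3 Dntt UMIs, and granule-gene-high cells at least 20 granule-gene UMIs per 10000. No floor was added to a count of 0, so a ratio over a count of 0 has no finite value.

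Scrublet in scanpy 1.11.5 scored doublets at an expected rate of 6.07% in the ST-HSC library and 2.35% in the LT-HSC library. No cell was removed for its score in the values reported, and leaving out the 402 and 40 highest scores was an alternative. Other alternatives changed the scaling (edgeR 4.0.16 TMM, median of ratios), the filters, the Car1 limit, thinning and the cells compared. Python 3.11.15, numpy 2.4.6, scipy 1.17.1, pandas 2.3.3 and matplotlib 3.10.9 were used. Promoter sequences came from RefSeq, where Car1 and Cldn13 had no entry in the table used. Some measured members of the lists enter the counts and medians and are not reported here by name.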

Additional observations from a re-analysis of the deposited data

Results flagged for a closer look

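Barcodes outside the cell filter held adult globin RNA in both libraries, and only the alternative with every deposited barcode used them. Globin took 0.477% of the UMIs of the 938 barcodes left out of the ST-HSC library, where 3 barcodes held 7986 of the 8090 globin UMIs. In the LT-HSC library it took 4.89% of the UMIs of 216 such barcodes, where 4 barcodes held 23688 of 23693. In erythroid-like cells of the ST-HSC library globin took 0.0332% of UMIs. These barcodes were set against no control samples.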

How the results depend on the processing

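The share of members was 4.02% of kept ST-HSC cells at a Car1 limit of 20 per 10000. Genes at least 2-fold higher in erythroid-like than in other ST-HSC cells numbered 1392 with TMM factors, 1570 with the median of ratios and 2174 with no filter on low values, against 847. Genes at least 2-fold lower numbered 4064 at a mean of at least 1 CPM and 11355 with no filter, against 2539. Between the libraries the higher genes numbered 747 and 2834 under those filters, against 464, and the lower ones 785 and 4157, against 389, or 894 in cells matched on Car1. Fewer or more genes enter under each filter by its construction, and otherwise the cause was not tested. The share of erythroid-like cells with a globin UMI was 30.2% after thinning, and their share in cycle was 3.93% at a limit of 2%.

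Of 189 genes named past 2-fold within the library, between 172 and 189 stayed past it in the same direction under each of 16 settings, apart from genes a setting could not measure. Between the libraries the count was between 93 and 104 of up to 104 over 12 settings. The carbonic anhydrase list reversed, with a median log2 ratio of -0.57 at a mean of 1 CPM and -1.03 with no filter, against 2.49 over 3 genes. Car8 had a log2 ratio of 0.078 in cells matched on Car1, from 1 UMI in each library. No paired analysis was possible because each group has 1 library. With 1 library a group, no replicate could be left out. Alas2, Slc4a1, Slamf1 and the embryonic globins were at or near the limit of detection at this depth.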
